A study of Mus musculus with 8 samples.

Results

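The colony-stimulating factors and their receptors were followed in J774A.1 cells, an established mouse macrophage line, after stimulation with lipopolysaccharide (LPS) alone or together with ursodeoxycholic acid (UDCA), a secondary bile acid. The 8 genes of the family, chosen by name from the 55487 genes of the TPM table, were the 3 ligand genes Csf1, Csf2 and Csf3 and the 5 receptor chain genes Csf1r, Csf2ra, Csf2rb, Csf2rb2 and Csf3r. The family was selected on these libraries with the TPM difference between the groups already known, so its values in that contrast are given as a description and without p-values. Whether a gene of the family passed the thresholds used for all genes is stated in the same way, and is no test of the family. Cells of both groups received LPS at 1 μg/mL for 24 h, and one group also received UDCA at 1 mM. There were 4 libraries per group, called LPS 1 to 4 and LPS + UDCA 1 to 4. No library without LPS was analysed here, so every value is relative to LPS-stimulated cells of 1 cell line.

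CSF1 (macrophage colony-stimulating factor) acts through CSF1R, a receptor tyrosine kinase that macrophages need for survival and proliferation. CSF2 (GM-CSF) binds the alpha chain CSF2RA, which pairs with the common beta chain CSF2RB and signals through JAK2 and STAT5. The mouse also carries CSF2RB2, a beta chain that serves IL-3 alone. CSF3 (G-CSF) binds CSF3R, a receptor of the neutrophil lineage, and is known for driving neutrophil production. LPS-stimulated macrophages are a well-known source of CSF2 and CSF3.

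Csf3, Csf2 and 4 of the receptor chain genes were lower with UDCA, while Csf1 was higher. Averaged over all libraries, 7 of the 8 genes reached 1 TPM and entered the fit over 11796 genes, and Csf3r did not. The mean TPM of Csf3r, under 1 in both groups, was higher with UDCA. A gene was called when it passed a fold of at least 2 on the log2(TPM + 1) scale and a Benjamini-Hochberg FDR under 0.05 in limma. Of the 7 genes, 6 were called lower, where 8.44% of all genes tested were called lower, and 1 was called higher, where 8.71% of all genes were. The same 6 genes were lower with no overlap between the groups, as were 29.9% of all genes, and Csf1 was higher with no overlap, as were 37.0% of all genes. The median log2 fold change of the 7 genes was -1.35, and that of all genes tested was 0.08. Csf1 passed the filter of 1 TPM only through the LPS + UDCA group and Csf2rb2 only through the LPS group. Since the contrast was known when the family was chosen, nothing is read from these counts.

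The libraries held the transcripts of macrophages. Of 10 macrophage marker genes, 9 averaged 1 TPM or more, while Mertk was listed at 0 in all libraries. The summed TPM of the 10 markers was 4822 to 5086 in the LPS group and 3333 to 3753 in the LPS + UDCA group. The markers differed in both directions: Lyz2 averaged 1988 TPM with LPS and 435.5 TPM with UDCA, and Lgals3 979.8 and 1723 TPM. Of these markers, 4 (Cd68, Itgam, Lyz2 and Mpeg1) were called lower and 2 (Adgre1 and Fcgr1) higher. Of all genes tested, 8.44% and 8.71% were called. In the other lists, 2 neutrophil markers and 1 B cell marker were called lower and none higher. Of these, S100a9 and Cd79b passed the filter of 1 TPM only through the LPS group. Of 10 neutrophil markers, 4, among them Ly6g and Elane, were listed at 0 in all libraries, and the list summed to 18.8 to 25.6 TPM against 3.08 to 9.33 TPM, mostly S100a8. Marker sums of T cells (16.2 to 23.2 against 8.96 to 10.2 TPM, nearly all of it Lck) and B cells (3.10 to 4.50 against 0.35 to 1.60 TPM) were also lower with UDCA, and Cd3e was listed at 0. All 5 mast cell markers were listed at 0, and the fibroblast and epithelial lists summed to at most 0.12 TPM in any library. The endothelial list summed to 1.76 to 2.18 TPM with LPS and 0.79 to 1.09 TPM with UDCA. The part of these levels in the differences of the family was not tested. In RNA from a whole culture, fewer cells with a transcript and less of it per cell cannot be told apart.

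Csf3, which encodes G-CSF, had the lowest log2 fold change of TPM + 1 of all 11796 genes tested. The added 1 TPM shrinks the fold of genes with levels under 1 TPM, so this rank belongs to that scale. The TPM of Csf3 was 1606, 1653, 1642 and 1649 in LPS 1 to 4, and 27.6, 34.9, 25.2 and 20.8 in LPS + UDCA 1 to 4. Every LPS library lay far above every UDCA library. The mean was 1637 ± 21.7 TPM (SD, n = 4) with LPS and 27.1 ± 5.90 TPM (SD, n = 4) with UDCA, a 60.3-fold lower level and a log2 fold change of -5.89 (SE 0.125). By TPM, Csf3 ranked 109th to 113th of all genes in the LPS libraries and 3313th to 4762nd in the UDCA libraries. The LPS libraries were close to each other, with a coefficient of variation of 1.32%, against 21.7% in the UDCA libraries.

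Csf2, which encodes GM-CSF, was lower with UDCA by a smaller factor. It had 14.3, 15.2, 16.2 and 16.3 TPM in the 4 LPS libraries and 6.41, 3.59, 5.92 and 4.61 TPM in the 4 UDCA libraries. The lowest LPS library was well above the highest UDCA library. The means of 15.5 ± 0.933 and 5.13 ± 1.28 TPM (SD, n = 4 each) gave a 3.02-fold lower level and a log2 fold change of -1.45 (SE 0.142). LPS + UDCA 2 had the lowest Csf2 and the highest Csf3 of its group.

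Csf1, which encodes M-CSF, was the only ligand gene that was higher with UDCA. Its TPM was 0.66, 0.87, 0.73 and 0.42 in the LPS libraries, all under 1 TPM, and 13.2, 13.8, 13.0 and 14.6 in the UDCA libraries. The mean was 0.670 ± 0.188 TPM with LPS and 13.6 ± 0.716 TPM with UDCA (SD, n = 4 each), a ratio of 20.3. The log2 fold change of TPM + 1 was 3.14 (SE 0.102), the 12th highest of 11796 genes. Because the LPS level was under the added 1 TPM, this scale understates the difference: the log2 ratio of the group means with nothing added was 4.35.

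**Figure D1:**
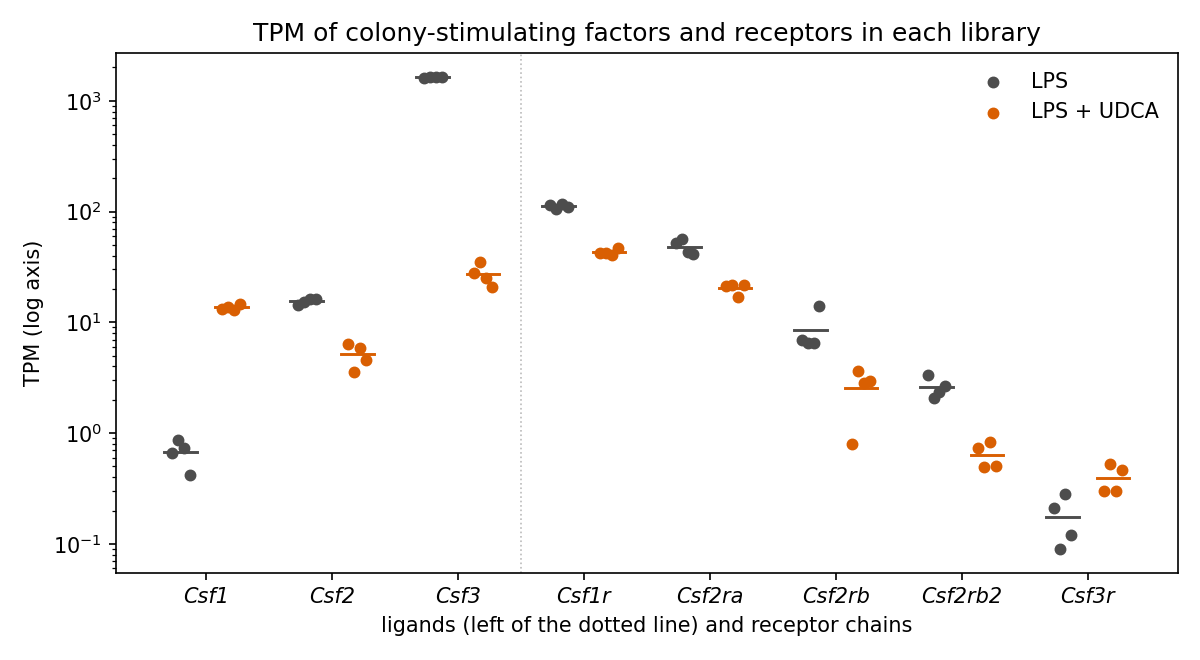
TPM (log axis) of the 3 ligand genes, left of the dotted line, and the 5 receptor chain genes in each library. Each point is 1 library, grey for LPS and orange for LPS + UDCA with 4 points each, and each bar is the group mean: Csf3 lies between 1606 and 1653 TPM in the LPS libraries and between 20.8 and 34.9 TPM in the UDCA libraries, while Csf1 is the only ligand gene whose orange points lie above the grey.

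TPM divides reads by transcript length, so levels of different genes can be set side by side. Summed over the 3 ligand genes, the level was 1621 to 1669 TPM in the LPS libraries (mean 1654 ± 22.4) and 40.0 to 52.3 TPM in the UDCA libraries (mean 45.9 ± 5.17). With LPS, Csf3 made up 99.0% to 99.1% of that sum, Csf2 0.885% to 0.980% and Csf1 0.0252% to 0.0521%. With UDCA, the Csf3 share was 52.0% to 66.8%, the Csf1 share 26.3% to 36.4% and the Csf2 share 6.86% to 13.6%. Csf3 thus stayed the most abundant of the ligand transcripts in all 8 libraries, but Csf1 took second place from Csf2 in all 4 UDCA libraries. The ratio of Csf3 to Csf1 TPM was between 1900 and 3926 with LPS and between 1.43 and 2.54 with UDCA. The ratio of Csf3 to Csf2 TPM was 101 to 112 with LPS and 4.26 to 9.73 with UDCA, and without the highest library, LPS + UDCA 2, the other UDCA libraries were between 4.26 and 4.52.

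**Figure D2:**
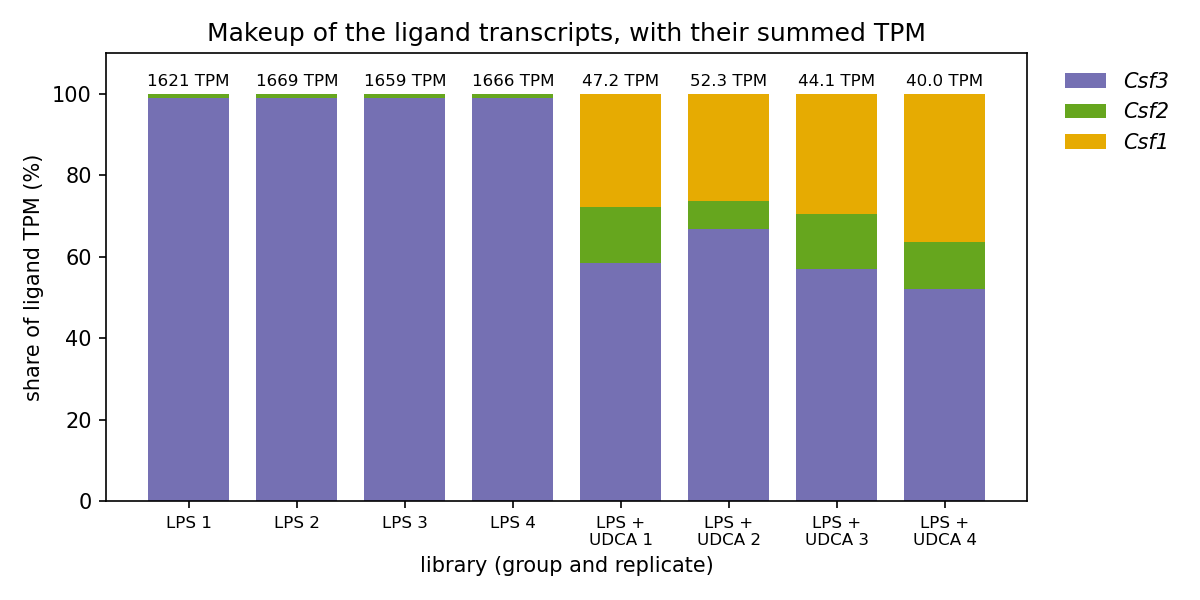
Share of the summed ligand TPM taken by Csf3, Csf2 and Csf1 in each library, in percent, with the sum in TPM above each bar. Csf3 fills about 99% of the bar in the 4 LPS libraries, while Csf1 takes 26.3% to 36.4% in the 4 UDCA libraries, of a sum that is far smaller.

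The ligand transcripts differ in their 3′ ends. AU-rich elements, runs built on the pentamer ATTTA in the 3′ untranslated region, are known to mark many cytokine transcripts for rapid decay. In the GENCODE M21 transcripts of GRCm38, the 317 bases of the Csf2 3′ region held 9 such pentamers and 4 overlapping copies of the nonamer TTATTTATT, searched on the sense strand. The density of pentamers was at least as high in only 0.0683% of the 10247 tested genes with a 3′ region. The Csf3 transcript held 6 pentamers and no nonamer in 669 bases, a density reached by 1.51% of genes, and that of Csf1 held 4 and no nonamer in 2111 bases, a density reached by 36.4% of genes. The stretch of 30 bases with the most pentamers in each ligand transcript is printed because it shows this difference, with each ATTTA in capitals. It covers bases 2027 to 2056 of the 3′ region of Csf1, 234 to 263 of that of Csf2 and 28 to 57 of that of Csf3.
Csf1: taaggtcATTTAaatatctATTTAaaaaat
Csf2: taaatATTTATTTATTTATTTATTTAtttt
Csf3: gtttATTTAtctctATTTAatATTTAtgca

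The Csf2 stretch is 1 unbroken run of 5 overlapping pentamers, the Csf3 stretch holds 3 and the Csf1 stretch 2. Among the receptor genes, the transcript of Csf1r held 3 pentamers in 1669 bases and those of Csf2ra, Csf2rb, Csf2rb2 and Csf3r held none. The part of these sequences in the levels of the family was not tested. Of 715 tested genes with at least 1 nonamer, the family left out, 6.71% were called lower and 9.37% higher, with a median log2 fold change of 0.18, against 8.78% lower, 7.48% higher and a median of 0.06 over all 10247 genes.

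For 5 of the 8 genes the RefSeq promoter table (GRCm38.p6) held an entry, while Csf3, Csf1r and Csf2rb were not in it. The 250 bases before the start of Csf1, the ligand gene that was higher with UDCA, are printed from the minus strand at chr3:107760470-107760719, with capitals marking the matches to the kappaB-like motif GGGANNNNCC on either strand.
Csf1 promoter: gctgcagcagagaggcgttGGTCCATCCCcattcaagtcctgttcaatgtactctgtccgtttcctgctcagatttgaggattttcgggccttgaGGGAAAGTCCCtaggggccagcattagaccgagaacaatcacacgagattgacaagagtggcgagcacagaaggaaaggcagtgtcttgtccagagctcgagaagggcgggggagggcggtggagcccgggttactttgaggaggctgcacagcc

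Counted back from the transcription start, the leftmost bases of the Csf1 matches are at -231 (minus strand), -155 (plus strand) and -154 (minus strand), and the last 2 overlap. The motif was found in 20.8% of 32544 promoter windows of 300 bases, which include 50 bases after the start, so a match is common. Of the other windows, that of Csf2 held 1 match after its RefSeq start, which lies 232 bases upstream of the GENCODE start, and that of Csf3r held 1 match before its start. TGACGTCA, the cyclic AMP response element found in 1.80% of windows, was matched only in Csf2ra, at base -92. GAGGAAG, which resembles the PU.1 site and is in 13.4% of windows, was matched in Csf2ra, Csf2rb2 and Csf3r, and TTNNGNAA, which resembles the C/EBP site and is in 40.7%, in Csf2, Csf2ra and Csf2rb2. TGANTCA (7.79% of windows) and TATAAA (13.6%) were matched in none of the 5 windows. The Csf2 window ends before the GENCODE start of that gene, so the bases just before that start were not searched for any motif. The RefSeq start of Csf3r lies downstream of its GENCODE start. All motifs were searched on both strands, and a match describes letters in the window, not a bound site.

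The receptor genes followed. Csf1r, which encodes the CSF1 receptor, had 115, 106.1, 117 and 109 TPM in LPS 1 to 4 and 42.4, 42.5, 40.7 and 47.2 TPM in LPS + UDCA 1 to 4. The groups were far apart against their spread. The means were 111.7 ± 4.93 and 43.2 ± 2.79 TPM (SD, n = 4 each), a 2.58-fold lower level and a log2 fold change of -1.35 (SE 0.0540). Csf1r and its ligand thus differed in opposite directions, and the ratio of Csf1 to Csf1r TPM was 0.00385 to 0.00820 with LPS and 0.309 to 0.324 with UDCA.

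Csf2ra, which encodes the alpha chain that binds GM-CSF, had 52.1, 56.2, 43.5 and 41.1 TPM with LPS and 21.4, 21.7, 16.8 and 21.9 TPM with UDCA. The groups did not overlap, although LPS 3 and 4 were below LPS 1 and 2. The means of 48.2 ± 7.09 and 20.5 ± 2.44 TPM (SD, n = 4 each) gave a 2.36-fold lower level and a log2 fold change of -1.19 (SE 0.117). The ratio of Csf1r to Csf2ra TPM overlapped between the groups, at 1.89 to 2.68 with LPS and 1.96 to 2.42 with UDCA.

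Csf2rb, which encodes the common beta chain, varied widely between libraries of the same group. Its TPM was 6.87, 6.52, 6.46 and 14.0 with LPS and 0.79, 3.62, 2.85 and 2.96 with UDCA. LPS 4 was far above the other LPS libraries and LPS + UDCA 1 far under its own group, yet the groups did not overlap. The means were 8.46 ± 3.70 and 2.56 ± 1.22 TPM (SD, n = 4 each), 3.31-fold lower with UDCA, with a log2 fold change of -1.43 (SE 0.328). That value was -1.18 without LPS 4 and -1.13 without LPS + UDCA 1.

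Csf2rb2, the gene of the IL-3 beta chain, had 3.38, 2.07, 2.36 and 2.66 TPM with LPS and 0.73, 0.49, 0.83 and 0.51 TPM with UDCA. All LPS libraries lay above 2 TPM and all UDCA libraries below 1 TPM. The means of 2.62 ± 0.563 and 0.640 ± 0.167 TPM (SD, n = 4 each) were 4.09-fold apart, with a log2 fold change of -1.13 (SE 0.146) on the TPM + 1 scale and -2.03 as the log2 ratio of the means. The pair of beta chain genes is similar in sequence: of the 31-base words in the Csf2rb2 transcripts, 28.6% also occur in Csf2rb, and 18.8% of the Csf2rb words occur in Csf2rb2. How reads were split between them is therefore uncertain. Their summed TPM, which also depends on how shared reads were assigned since the transcripts differ in length, was 8.59 to 16.7 with LPS and 1.52 to 4.11 with UDCA, without overlap. Csf2rb made up 67.0% to 84.0% of this sum with LPS and 52.0% to 88.1% with UDCA, which overlap.

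Csf3r, which encodes the G-CSF receptor, was near the floor of the table. It had 0.21, 0.09, 0.28 and 0.12 TPM with LPS and 0.30, 0.53, 0.30 and 0.46 TPM with UDCA. The ranges were close but did not overlap, with 0.28 TPM the highest with LPS and 0.30 TPM the lowest with UDCA. Values were kept to 2 decimals, and the mean over all libraries, 0.286 TPM, was too low to enter the fit. The means were 0.175 ± 0.0866 and 0.398 ± 0.116 TPM (SD, n = 4 each). Of its 31-base words, 19.9% also occur in the gene AC105061.2, which adds a doubt over the source of so few reads. Csf3 thus had the largest level of the family with LPS while its receptor gene was below 1 TPM in every library.

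The order of levels changed with UDCA. With LPS it ran from Csf3 through Csf1r, Csf2ra, Csf2, Csf2rb, Csf2rb2 and Csf1 to Csf3r, and no neighbours in that order overlapped, although the lowest Csf2 library, at 14.3 TPM, was close to the highest Csf2rb library, at 14.0 TPM. With UDCA it ran from Csf1r through Csf3, Csf2ra, Csf1, Csf2, Csf2rb and Csf2rb2 to Csf3r. There the ranges of Csf3 and Csf2ra overlapped, as did those of Csf2 and Csf2rb and of Csf2rb and Csf2rb2, and Csf3r overlapped with Csf2rb2. The 5 receptor genes together had 167 to 178 TPM with LPS (mean 171 ± 4.56) and 61.6 to 73.1 TPM with UDCA (mean 67.3 ± 4.89).

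Set against all genes, Csf3 and Csf1 lay at the ends of the distribution and the receptors did not. Csf3 had the lowest log2 fold change, and Csf1 the 12th highest. Csf2 was the 461st lowest, Csf2rb the 485th, Csf1r the 563rd, Csf2ra the 756th and Csf2rb2 the 847th, so that between 3.90% and 7.17% of all genes were lower still.

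**Figure D3:**
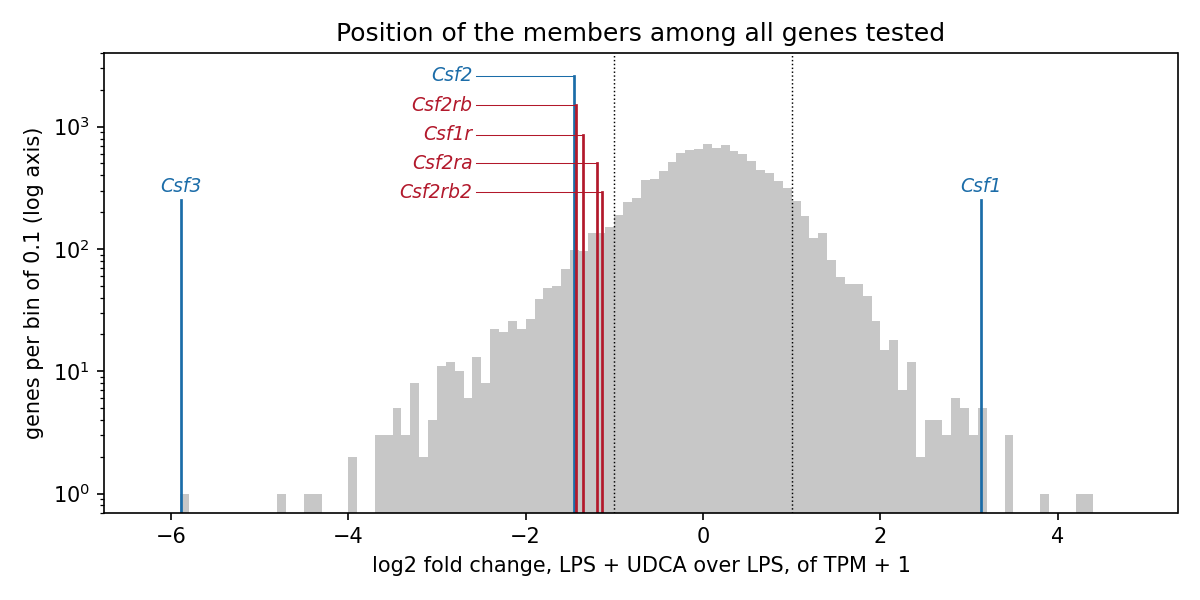
Number of genes (log axis) by log2 fold change of TPM + 1, LPS + UDCA over LPS, in bins of 0.1 over the 11796 genes tested, with the 7 tested genes of the family as vertical lines (blue for ligands, red for receptor chains). The line height carries no value and the dotted lines mark a fold of 2; Csf3 stands at -5.89, at the far left of the distribution, Csf1 at 3.14 near its right end, and the other genes between -1.45 and -1.13.

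The genes nearest to Csf3 and Csf1 in their values were listed as a description. The measure used mostly follows the size of the fold change. Likeness was measured as the root-mean-square difference in log2(TPM + 1) over the 8 libraries, after taking each gene relative to its own LPS mean, among 7068 genes that averaged 10 TPM or more. The nearest to Csf3 were Fabp4, which encodes a fatty acid binding protein, at 0.822, the chemokine gene Ccl7 at 1.04 and the mitotic kinase gene Plk1 at 1.10. On the log2(TPM + 1) scale, Fabp4 had a log2 fold change of -4.76, Ccl7 of -4.43 and Plk1 of -4.37. Csf3 was the lowest of all genes tested on that scale. Fabp4 had 41.9 ± 1.56 TPM with LPS and 0.590 ± 0.105 TPM with UDCA (SD, n = 4 each). Its UDCA level was under the added 1 TPM, so that scale understates its difference. As a plain ratio of mean TPM, the difference of Fabp4 was larger than that of Csf3. The nearest to Csf1 were the long noncoding RNA gene Neat1 at 0.199, the transcription factor gene Mef2b at 0.217 and Il23a, which encodes a subunit of IL-23, at 0.242. Their log2 fold changes were 2.95, 2.88 and 2.82. Fabp4, Ccl7 and Plk1 reached the average of 10 TPM only through the LPS group, and Mef2b and Il23a only through the LPS + UDCA group. Il23a had 5.91 ± 0.664 TPM with LPS and 47.7 ± 4.01 TPM with UDCA (SD, n = 4 each).

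The cytokine relatives were almost silent. Il34 encodes the other ligand of CSF1R, and it had 0.800 ± 0.221 TPM with LPS and 0.870 ± 0.194 TPM with UDCA (SD, n = 4 each), with overlapping groups and too little to be tested. Il3, Il5 and Il3ra were listed at 0 in all libraries, and Il5ra at 0.01 TPM in 1 UDCA library and at 0 in the others.

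Signalling genes of the receptors changed in both directions. Of 36 kinases and adaptors, 33 were tested, 6 were called lower and 2 higher (limma, Benjamini-Hochberg adjusted), where 8.44% and 8.71% of all genes were called, with a median log2 fold change of -0.42. At the FDR alone, 17 were lower and 10 higher, against 3807 lower and 4741 higher of all 11796 genes. Jak2, the kinase that CSF2RB carries, rose from 4.34 ± 0.653 to 10.3 ± 0.781 TPM (log2 fold change 1.09, limma adjusted p = 9.7e-06). Its call depended on scaling, since its log2 fold change was at or just under 1.00 under quantile normalization and median-of-ratios scaling. Src rose from 6.38 ± 0.534 to 14.8 ± 0.614 TPM (limma adjusted p = 8.6e-07). Lower were Dok2, an adaptor that restrains receptor tyrosine kinases, from 173.5 ± 5.09 to 72.7 ± 6.10 TPM (limma adjusted p = 1.3e-07), and Sh2b3, an adaptor that restrains JAK2, from 47.7 ± 4.41 to 20.2 ± 1.96 TPM (limma adjusted p = 1.8e-06). The remaining genes called lower were Dok3, Pik3cg, Inpp5d and Spry2. Lyn, a SRC family kinase, had a log2 fold change of -0.55 and Tyrobp, the adaptor DAP12, of -0.42, both past the FDR and short of the fold (limma adjusted p = 1.7e-05 and 4.3e-05). Cbl, the ubiquitin ligase that turns over CSF1R, had 16.2 ± 1.32 TPM with LPS and 18.0 ± 0.925 TPM with UDCA, with overlapping groups (limma adjusted p = 0.094).

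Of 20 STAT factors, feedback genes and target genes, 19 were tested, 6 were called lower and none higher, where 8.44% and 8.71% of all genes were called, and the median log2 fold change was -0.59, against 0.08 over all genes. At the FDR alone, 13 were lower and 2 higher, where 3807 of all 11796 genes were lower and 4741 higher, and at an unadjusted p under 0.05, 13 were lower and 3 higher (limma). Ccnd1, the cyclin D gene that CSF1 is known to induce, fell from 84.8 ± 5.38 to 7.92 ± 0.693 TPM (log2 fold change -3.27, limma adjusted p = 1.6e-09). Socs3, the feedback inhibitor of CSF3R signalling, fell from 306.4 ± 6.67 to 38.9 ± 7.40 TPM (log2 fold change -2.96, limma adjusted p = 3.9e-08). Id1, Bcl2l1, Myc and Ccnd3 were the other genes called lower. Stat5a had a log2 fold change of -0.41 (limma adjusted p = 8.1e-04) and Stat5b of -0.17 (limma adjusted p = 0.081). Cish, a feedback gene of STAT5, had 0.833 ± 0.283 and 1.47 ± 0.533 TPM, with overlapping groups (limma adjusted p = 0.063).

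Of 12 factors known at the Csf1r promoter and enhancer, 11 were tested, 3 were called lower and none higher, again beside 8.44% and 8.71% of all genes, and the median log2 fold change was -0.57. At the FDR alone, as at an unadjusted p under 0.05, 7 were lower and 2 higher (limma), where 3807 of all 11796 genes were lower and 4741 higher at the FDR alone. Egr1 fell from 35.9 ± 3.99 to 3.42 ± 0.554 TPM (log2 fold change -3.07, limma adjusted p = 2.8e-08) and Egr2 from 4.09 ± 0.686 to 0.458 ± 0.207 TPM (log2 fold change -1.81, limma adjusted p = 5.2e-06). Egr2 was under 1 TPM in every UDCA library and passed the filter of 1 TPM only through the LPS group. With 1 TPM required in every library Egr2 was not tested, and 2 of these factors were called lower. Cebpb was the third gene called lower, with LPS libraries spread from 60.1 to 161 TPM. Spi1, which encodes PU.1, was slightly higher with UDCA, at 326.1 ± 19.8 against 285.2 ± 11.8 TPM (log2 fold change 0.19, limma adjusted p = 0.0063). That small value depended on scaling, at 0.08 under median-of-ratios scaling and 0.27 under quantile normalization. Cebpa had a log2 fold change of -0.60, past the FDR and short of the fold (limma adjusted p = 5.4e-04).

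Of 4 genes for sheddases of CSF1R and CSF1 and their cofactor, 3 were tested and none passed the fold. All 3 were higher at the FDR alone, as at an unadjusted p under 0.05 (limma). At the FDR alone, 4741 of all 11796 genes were higher and 3807 lower. Among the 3 was Adam17, the main sheddase of CSF1R, with 54.9 ± 2.49 against 47.8 ± 3.81 TPM (log2 fold change 0.20, limma adjusted p = 0.017). The log2 fold change of Adam17 was 0.09 under median-of-ratios scaling and 0.20 under quantile normalization. All 10 genes of proteins that bind AU-rich elements were tested, with 1 called higher and 1 called lower, where 8.71% and 8.44% of all genes were called, and a median log2 fold change of -0.20. Tia1 rose from 6.71 ± 1.25 to 16.4 ± 1.26 TPM (limma adjusted p = 1.5e-05), and Zfp36l2 fell from 20.4 ± 1.90 to 8.59 ± 0.212 TPM (limma adjusted p = 6.7e-07). Without LPS 4, LPS + UDCA 1 or LPS + UDCA 2, the count called lower was 2, with Zc3h12a. Zfp36, which encodes tristetraprolin, had a log2 fold change of -0.36 (limma adjusted p = 1.9e-04), short of the fold. Over the 5 lists with tested genes, 16 of 76 genes were called lower and 3 higher, with a median log2 fold change of -0.39. Of all 11796 genes, 8.44% were called lower and 8.71% higher, with a median of 0.08.

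**Figure D4:**
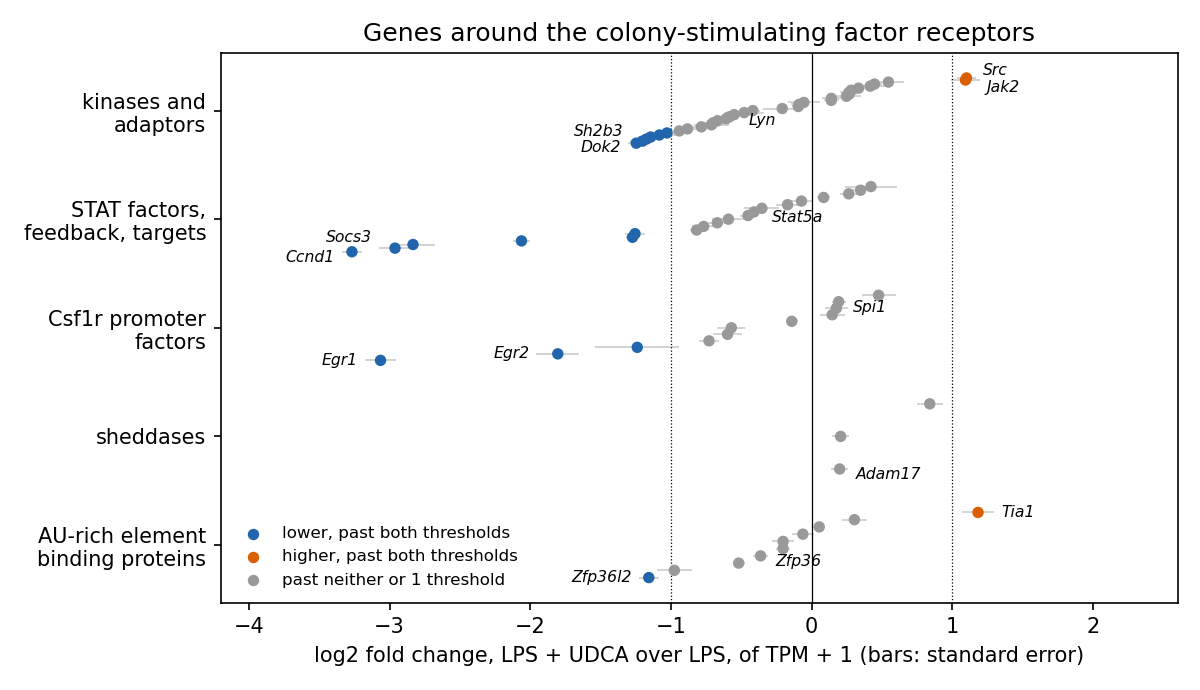
Log2 fold change of TPM + 1, LPS + UDCA over LPS, of the 76 tested genes in 5 lists, with the standard error as a grey bar. Blue and orange points passed both thresholds (16 lower, 3 higher) and grey points did not; the dotted lines mark a fold of 2, and the lowest are Ccnd1 and Egr1 at -3.27 and -3.07.

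By GENCODE M21 on GRCm38, Csf1 lies on chromosome 3 at 107741048 to 107760469 (minus strand), Csf2 and Csf3 on chromosome 11 at 54247271 to 54249667 (minus) and 98701263 to 98703629 (plus), Csf2ra on chromosome 19 at 61223957 to 61228429 (minus) and Csf3r on chromosome 4 at 126024550 to 126044440 (plus). Csf1r lies on chromosome 18 at 61100598 to 61132149 (plus), where the Hmgxb3 gene on the other strand overlaps it. Hmgxb3 had 18.1 ± 1.31 TPM with LPS and 18.6 ± 0.906 TPM with UDCA (log2 fold change 0.04, SE 0.0641, limma adjusted p = 0.63), with overlapping groups. Gm12223, antisense to Csf2, was listed at 0 in all libraries. The beta chain genes lie on chromosome 15, Csf2rb2 at 78282507 to 78305721 (minus) and Csf2rb at 78325752 to 78353847 (plus), 20031 bases apart, whereas Csf2 and Csf3 are 44451596 bases apart.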

How the data were processed

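The authors deposited TPM per gene, in 1 column for each library and to 2 decimals. The columns give no unit, which was read from their sums, 973190 to 977485 in the LPS group and 958918 to 962737 in the LPS + UDCA group. The submitters' processing notes name Bowtie 0.12.2 and the builds mm10 and GRCm38, while the counting program, annotation and use of strand are not given in the sources used here. TPM keeps no depth, so the depth is unknown and no counting interval was computed. Libraries were grouped by their labels, which do not say whether replicates were separate cultures, so p-values measure only the spread between these libraries.

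Genes averaging 1 TPM or more were fitted on the log2(TPM + 1) scale (limma 3.58.1, R 4.3.3, lmFit and eBayes with a trend), with Benjamini-Hochberg adjustment over all 11796 genes. The fit was tested on simulated data of 11796 genes, in which 100% of 200 changed genes were recovered with 1 false call. The changed genes were drawn from the better expressed ones and shifted by more than the fold threshold, with normal noise. The simulation therefore does not cover genes near that threshold or near the filter.

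The members, lists and motifs were chosen with earlier results of these data known. All 8 members were named. From each list, the genes named were the 2 highest and 2 lowest past both thresholds, and in every case Il34, Jak2, Lyn, Tyrobp, Cbl, Stat5a, Stat5b, Cish, Socs3, Spi1, Cebpa, Adam17 and Zfp36 (some genes of the rule and the marker lists are not reported here), and the 3 genes most like the highest and lowest member. Other genes named, such as neighbours and further called list genes, were chosen after their values were seen. Alternatives covered pseudocount, filter, scaling, thresholds, trend, replicate block and leaving out each library. Gene models are from GENCODE M21 and promoters from RefSeq.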

Additional observations from a re-analysis of the deposited data

Results flagged for a closer look

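Single libraries stood apart from their group in 3 of 40 groups of 4 values examined, where chance alone gives about 1 in 20, or 2. A library was noted when its gap to the nearest other library exceeded Dixon's critical value as a share of the group's range. Csf2rb in LPS 4 was the highest of its group at 14.0 TPM, with a gap of 0.946 of the range. Csf2ra in LPS + UDCA 3 was the lowest at 16.8 TPM, with a gap of 0.898. The ratio of Csf3 to Csf2 TPM in LPS + UDCA 2 was the highest of its group at 9.73, with a gap of 0.952. The cause of these gaps was not tested.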

How the results depend on the processing

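Of 411 values recomputed under another setting, 383 stayed within the limits set for them and 28 moved. Direction was compared only for the fold changes of single members, and none of those changed direction. Most other values were counts or shares, which have no direction. The counts of the sister cytokines and receptors, with no gene tested in the main fit, stayed at 0 throughout. The 7 members of the main fit passed the thresholds of each setting that tested them, in the same direction. This is a description, since they were chosen on this contrast. Csf3r was tested only when all genes with a mean above 0 TPM were fitted, and was not called there. With at least 1 TPM required in every library only Csf2, Csf3, Csf1r and Csf2ra remained tested. With no fold minimum, 4741 genes were higher, 3807 lower and 62 pathway list genes past the FDR, against 1028, 995 and 19. The log2 fold change of Csf1 was 4.19 and 4.37 with pseudocounts of 0.1 and 0.01 and 4.35 as the ratio of means, a setting chosen after seeing the data. For Csf2rb2 the same 3 settings gave -1.88, -2.03 and -2.03. Csf1r was -1.46 under median-of-ratios scaling, which moved the median of all genes from 0.08 to -0.02.

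Leaving out each library in turn gave 959 to 1122 genes higher, 972 to 1033 lower and 18 to 20 list genes. The log2 fold change ranged from 3.06 to 3.19 for Csf1, -1.55 to -1.32 for Csf2, -6.01 to -5.77 for Csf3, -1.39 to -1.32 for Csf1r, -1.27 to -1.11 for Csf2ra, -1.58 to -1.13 for Csf2rb, -1.21 to -1.04 for Csf2rb2 and -1.64 to -1.30 for the summed beta chains.

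The replicate numbers did not pair the libraries, with same-number correlations of -0.04 to 0.15 and others of -0.14 to 0.16. With the replicate block, 1034 genes were higher and 1000 lower, and 2020 of the 2023 called without it were shared. Zc3h12a joined Zfp36l2 among the AU-rich element binding genes called lower under either pseudocount, either scaling, and without LPS 4, LPS + UDCA 1 or LPS + UDCA 2, which gave 2 genes in place of 1. With depth unknown, the counting error of values under 1 TPM, such as those of Csf3r, of Csf1 with LPS and of Csf2rb2 with UDCA, could not be given.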

Other observations

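Protein-coding genes within 100 kb of the members were chosen by position after the members' values were seen. Of 36 such entries, where a gene near 2 members counts for each, 17 were tested. Of these, 3 were called lower and none higher (limma, Benjamini-Hochberg adjusted), where 8.44% and 8.71% of all genes were called. At the FDR alone, as at an unadjusted p under 0.05, 6 were lower and 6 higher (limma). Of all 11796 genes, 3807 were lower and 4741 higher at the FDR alone. Med24, a Mediator subunit gene that ends 962 bases from Csf3, had 77.5 TPM with LPS and 34.1 TPM with UDCA (log2 fold change -1.16, limma adjusted p = 2.1e-07). Thra, the thyroid hormone receptor alpha gene 37009 bases from Csf3, had 23.2 and 6.14 TPM (log2 fold change -1.77, limma adjusted p = 2.2e-07). Psmd3, a proteasome subunit gene 5284 bases from Csf3 on its other side, had 174 and 203 TPM (log2 fold change 0.22, limma adjusted p = 1.4e-04). Ahcyl1, the only such neighbour of Csf1, at 44488 bases, had 57.6 and 102.2 TPM (log2 fold change 0.82, limma adjusted p = 3.5e-06), past the FDR and short of the fold. Ncf4, an NADPH oxidase subunit gene 19927 bases from Csf2rb2, had 130 and 179.5 TPM (log2 fold change 0.46, limma adjusted p = 3.4e-04), in the opposite direction to both beta chain genes. Mpst, 52569 bases from Csf2rb, was the third gene called lower, with 44.0 and 21.5 TPM (limma adjusted p = 1.3e-06). Il3, 15636 bases from Csf2, was listed at 0 in all libraries.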
